A study of Schizosaccharomyces pombe with 6 samples.

Results

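The transcripts described here encode the fission yeast enzymes that attach and remove ubiquitin and the ubiquitin-like protein NEDD8, together with the cullins and F-box proteins of the ligases they work with. Members were chosen by symbol. Each is the gene of a probe set that the array's platform annotation gives to a single *Schizosaccharomyces pombe* gene, with a symbol made of ubp, uch, otu, nep, ubc, uba, cul, csn or pof and a number. This gave 56 genes with 1 probe set each, out of 2899 *S. pombe* genes on 2917 named probe sets. They comprise 22 proteases (16 ubp, 2 uch, 2 otu and 2 nep genes), 11 conjugating enzymes (ubc), 1 activating enzyme (uba3), 2 cullins, 6 subunits of the COP9 signalosome (csn) and 14 genes named pof, for *pombe* F-box.

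The study measured total RNA of cells with the genotype isp7+ null on 3 arrays and of wild type cells on 3 arrays, all grown to mid-log phase in Edinburgh minimal medium whose nitrogen came from ammonium chloride. The Isp7 protein is a dioxygenase of the kind that uses iron and 2-oxoglutarate, and the series' title concerns its part in amino acid uptake and TOR signalling. How isp7 was removed, any further markers of the strains and whether the arrays of a group came from separate cultures are not given in the sources used here, so the p-values speak only of array-to-array spread, which may be technical. Values are log2 probe set values, and a level on this scale can be compared between arrays for a gene but not between genes. The isp7 probe set stood at 6.02, 6.38 and 6.18 in the null arrays, against 11.70, 11.63 and 11.55 in the wild type arrays, the direction the labels give. Over the 2917 probe sets, the correlation was 0.998 to 0.999 within a group and 0.973 to 0.978 between groups. Background was taken as 7.08, the level that 95% of the budding yeast probe sets of the same array design stay under, and all 56 members had a mean above it.

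Ubiquitin is joined to proteins by a relay of an activating enzyme, a conjugating enzyme and a ligase, and ubiquitin proteases take it off again. The largest ligase family is built on cullins. In the SCF type, Cul1 carries the adaptor Skp1, an interchangeable F-box protein that binds the substrate and the RING subunit Rbx1. NEDD8 is joined to cullins by a parallel relay, with Uba3 as the catalytic subunit of its activating enzyme and Ubc12 as its conjugating enzyme, and this switches the ligase on. The COP9 signalosome cuts NEDD8 off cullins again, and dedicated NEDD8 proteases such as Nep1 and Nep2 act on NEDD8 precursors and conjugates. In yeasts the attachment of ubiquitin at large is known for its part in the cell cycle and in sorting nutrient permeases.

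Of the 56 members, 3 fell and 1 rose in the isp7 null cells, where a fall or rise means that limma's adjusted p was below 0.05 and that the values differed 1.5-fold or more (0.58 on the log2 scale). The members that fell were the protease genes nep2, ubp11 and ubp3, and the one that rose was ubc12. That is 7.14% of the members. Over all 2917 *S. pombe* probe sets the same rule called 8.60%, with 4.22% higher and 4.39% lower, so the share of called members is near that background. A further 35 members passed the adjusted p with a smaller change. By the adjusted p alone, 17 members were higher and 22 lower in the null, 69.6% of them, where over all probe sets the share was 70.7%, with 29.3% higher and 41.3% lower. The median log2 change was -0.05 over the members and -0.05 over all probe sets, and the median size of change without its sign was 0.16 for members and 0.20 for all.

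**Figure D1:**
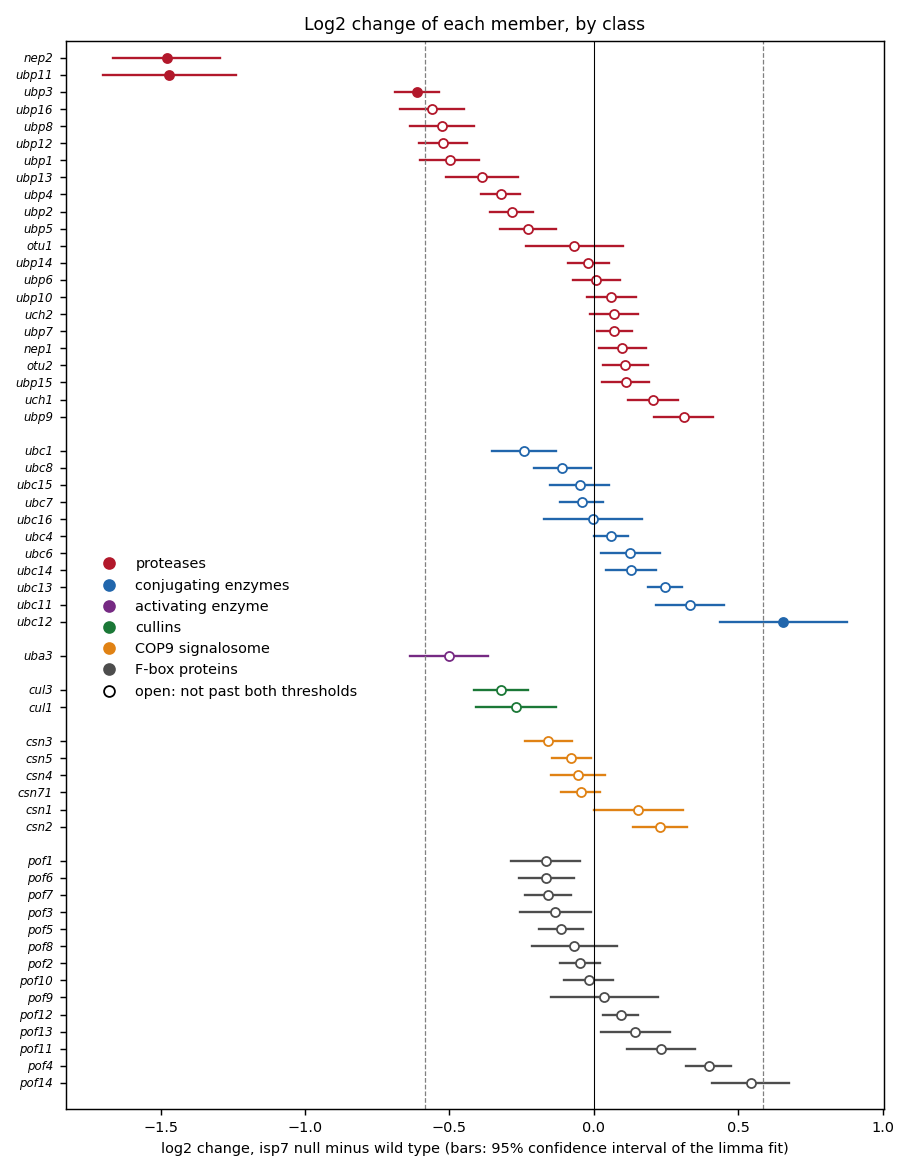
Log2 change (isp7 null minus wild type, x axis) of each of the 56 members, grouped by class and ordered within it. Points are limma estimates from 3 arrays a group, bars their 95% confidence intervals, filled points genes past both thresholds and dashed lines the 1.5-fold change. The genes nep2 and ubp11, at -1.48 and -1.47, lie apart from all other members, which range from -0.61 for ubp3 to 0.66 for ubc12.

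Among the proteases, nep2 changed most. It encodes a NEDD8 protease (locus SPBC32H8.02C). Its values were 7.39, 7.26 and 7.43 in the null arrays, against 8.68, 8.87 and 8.96 in the wild type arrays. All null arrays lay below all wild type arrays, and the groups did not overlap for 76.1% of all *S. pombe* probe sets. The means were 7.36 ± 0.090 in the null and 8.84 ± 0.14 in wild type (SD, n = 3 each), a 2.79-fold fall (log2 change -1.48, SE 0.078, limma adjusted p = 9.19e-06). In these bulk cultures, fewer cells with the transcript and less transcript per cell cannot be told apart. In the null, the mean is close to the background of 7.08, where the RMA method used to make the values compresses differences. Its relative nep1, the other NEDD8 protease gene, stood at 11.74, 11.68 and 11.63 in the null, against 11.56, 11.58 and 11.60 in wild type. The groups of nep1 lay just apart, at 0.10 on the log2 scale (SE 0.035, limma adjusted p = 0.0371), short of 1.5-fold. Within each array, the value of nep2 less that of nep1 averaged -4.32 in the null and -2.74 in wild type, a difference of -1.58. An exact two-sided permutation test over the 3 and 3 arrays gave p = 0.10, the smallest it can give. Since both genes already stood apart in opposite directions, that outcome was fixed and decides nothing.

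The ubiquitin protease gene ubp11 (SPBC19C2.04C) fell almost as far. It was at 10.18, 9.82 and 9.98 in the null arrays, against 11.34, 11.52 and 11.53 in the wild type arrays. Again every null array lay below every wild type array, and the null arrays were the more spread, with an SD of 0.18 against 0.11 in wild type. The log2 change was -1.47 (SE 0.097, limma adjusted p = 1.87e-05), a 2.77-fold fall on values far from the background. Beyond 2-fold, only these 2 members were called, and over all *S. pombe* probe sets 0.48% were lower and 1.20% higher by that rule.

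A smaller fall was that of ubp3 (SPBP8B7.21), whose budding yeast namesake encodes a ubiquitin protease that takes part in vesicle transport and in the turnover of ribosomes. It had values of 12.26, 12.27 and 12.30 in the null, against 12.86, 12.87 and 12.94 in wild type, with little spread in either group. The log2 change was -0.61 (SE 0.032, limma adjusted p = 9.19e-06), a 1.53-fold fall that lies only just past the threshold. It went to -0.57 when each array was centred on its median, to -0.58 with repeated quantile normalization and to -0.54 with the gene length correction described further on, all short of 1.5-fold.

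**Figure D2:**
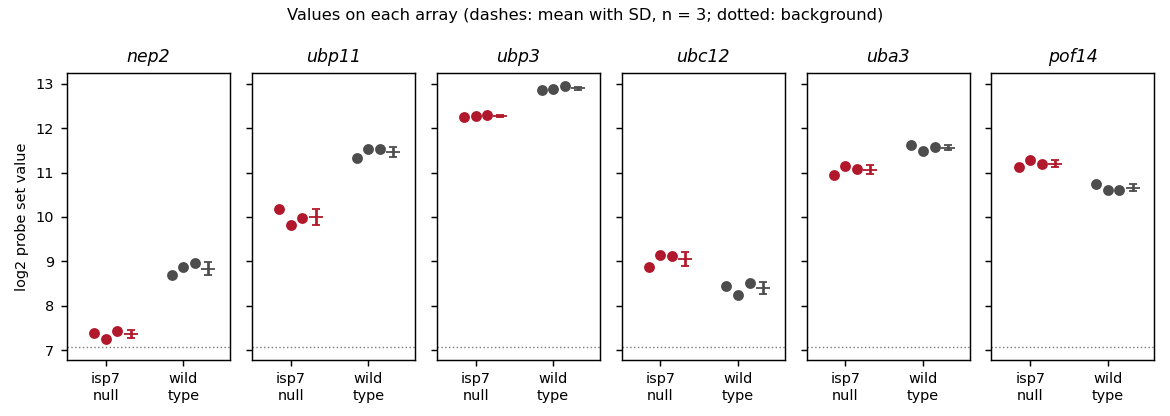
Log2 probe set values of 6 members on each isp7 null array (red, left) and each wild type array (grey, right), with the mean and SD (n = 3) beside them and the background of 7.08 as a dotted line. Null and wild type arrays do not overlap for any of these 6 genes, picked from those with large changes. They are not the 6 largest, as ubp16 (-0.56), ubp8 and ubp12 (both -0.52) changed more than uba3 (-0.50). The groups do not overlap for 76.1% of all *S. pombe* probe sets. In the null, nep2, at 7.26 to 7.43, lies just above the background.

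The other 19 proteases did not pass 1.5-fold, and 14 of them passed the adjusted p. Those lower in the null by the adjusted p were led by ubp16 (log2 change -0.56, SE 0.047), ubp8 (-0.52, SE 0.047), ubp12 (-0.52, SE 0.035) and ubp1 (-0.50, SE 0.043). Ubp8 is the ubiquitin protease of the SAGA transcription coactivator, which acts on histone H2B, and Ubp12 binds the COP9 signalosome. The values of ubp16 were 11.52, 11.56 and 11.65 in the null, against 12.07, 12.16 and 12.18 in wild type. It passed 1.5-fold, at -0.60, without null array 3, and at -0.59 without wild type array 1. Lower still by the adjusted p were ubp13 (-0.39), ubp4 (-0.32), ubp2 (-0.29) and ubp5 (-0.23). The gene annotated as ubp13 is now named pan2 and encodes a subunit of a poly(A) nuclease that shortens mRNA tails, so it is a protease only by its old symbol.

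Several proteases were higher in the null by the adjusted p, the most by ubp9, with a log2 change of 0.31 (SE 0.043). It was at 10.17, 10.18 and 10.12 in the null, against 9.91, 9.76 and 9.86 in wild type, with no overlap. The others were uch1 (0.20), ubp15 (0.11), otu2 (0.11), nep1 and ubp7 (0.07), with limma adjusted p of 0.00175 to 0.0422. No difference passed the adjusted p for otu1, ubp14, ubp6, ubp10 and uch2, whose log2 changes lay between -0.07 and 0.07 with 95% intervals from -0.24 to 0.15 in all. Ubp6 and Uch2 are the ubiquitin proteases that sit on the proteasome. Over the class, with ubp13 kept in it, the median change was -0.15, against -0.05 over all probe sets. By the adjusted p 11 of 22 were lower and 6 higher, 77.3% of them. Over all probe sets 70.7% passed, 41.3% lower and 29.3% higher.

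Of the 11 conjugating enzymes, 5 were higher and 2 lower by the adjusted p, where over all probe sets 29.3% were higher and 41.3% lower. Their median change was 0.06, against -0.05 over all probe sets, and the difference between this class and the proteases was not tested. Only ubc12 (SPCC777.10C), the conjugating enzyme of NEDD8, passed 1.5-fold. It had values of 8.88, 9.15 and 9.13 in the null, against 8.44, 8.24 and 8.51 in wild type. The groups did not overlap, although both were more spread than most members, at SDs of 0.15 in the null and 0.14 in wild type. The log2 change was 0.66 (SE 0.093, limma adjusted p = 0.00057), a 1.58-fold rise. Without wild type array 2 it was 0.577, just short of 1.5-fold, which left no member called higher, and after the gene length correction it was 0.585, also just short of 1.5-fold before rounding.

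The next changes among the conjugating enzymes were those of ubc11 and ubc13. Ubc11 works with the anaphase-promoting complex in the destruction of mitotic cyclins, and its transcript was at 12.87, 13.04 and 13.03 in the null, against 12.67, 12.63 and 12.65 in wild type (log2 change 0.33, SE 0.049). Ubc13, which builds regulatory ubiquitin chains in DNA damage tolerance, was at 14.36, 14.39 and 14.38 in the null, against 14.12, 14.12 and 14.14 in wild type (0.25, SE 0.025). Both stood apart between the groups, as did 76.1% of all *S. pombe* probe sets, and neither reached 1.5-fold. By the adjusted p, ubc14 (0.13) and ubc6 (0.13) were also higher and ubc1 (-0.24) and ubc8 (-0.11) lower. Ubc6 and Ubc7 serve the destruction of proteins of the endoplasmic reticulum, and ubc7 changed by -0.04 (limma adjusted p = 0.267). For ubc15 (-0.05), ubc16 (-0.004) and the general enzyme gene ubc4 (0.06) no difference passed either. The ubc4 values of 15.25 to 15.34 lie near the highest value in the table, 15.65, where differences are compressed.

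The activating enzyme gene uba3 (SPAC24H6.12C) was lower in the null. Its values were 10.95, 11.15 and 11.08 in the null, against 11.62, 11.49 and 11.58 in wild type, with no overlap. The log2 change of -0.50 (SE 0.057, limma adjusted p = 0.000199) was 1.42-fold, short of 1.5-fold. So in the NEDD8 relay the activating enzyme subunit was lower and the conjugating enzyme higher. Within each array, ubc12 less uba3 averaged -2.01 in the null and -3.16 in wild type, a difference of 1.16 (exact two-sided permutation test, n = 3 each, p = 0.10, the smallest possible). Both within-array differences, of nep2 and nep1 and of ubc12 and uba3, were chosen after the values had been seen. With 2 such tests the Benjamini-Hochberg adjusted p is 0.10 for each. The outcome of both tests was fixed by that choice, so they add no support.

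Both cullins were lower in the null by the adjusted p, as were 41.3% of all probe sets, without reaching 1.5-fold. The scaffold gene of the SCF ligases, cul1, was at 10.34, 10.53 and 10.54 in the null, against 10.73, 10.79 and 10.70 in wild type (log2 change -0.27, SE 0.058, limma adjusted p = 0.00461). For cul3, whose ligases take BTB proteins as adaptors, the values were 10.29, 10.40 and 10.39 in the null, against 10.70, 10.71 and 10.64 in wild type (-0.32, SE 0.039, limma adjusted p = 0.000269). Neither gene's groups overlapped, and the groups did not overlap for 76.1% of all *S. pombe* probe sets. The remaining cullin gene, cul4, appears in the platform annotation under its old symbol pcu4 and so falls outside the symbol rule. It changed by -0.09 (SE 0.040, limma adjusted p = 0.0733).

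The COP9 signalosome subunits moved little and not together. The largest change was that of csn2, at 10.20, 10.23 and 10.32 in the null, against 10.06, 9.99 and 10.01 in wild type (log2 change 0.23, SE 0.039, limma adjusted p = 0.00151). In the other direction csn3 was at 11.23, 11.19 and 11.18 in the null, against 11.31, 11.41 and 11.36 in wild type (-0.16, SE 0.034, limma adjusted p = 0.0048). Null and wild type arrays stood apart for both, as for 76.1% of all *S. pombe* probe sets. The csn1 values were 10.63, 10.86 and 10.87 in the null, against 10.63, 10.60 and 10.66 in wild type, and the groups overlapped through null array 1. Its log2 change was 0.15 (SE 0.065, limma adjusted p = 0.0679). The gene of the catalytic subunit that cuts off NEDD8, csn5, was slightly lower (-0.08, limma adjusted p = 0.0398), and csn4 (-0.06) and csn71 (-0.05) did not pass. No subunit reached 1.5-fold, where 8.60% of all probe sets were called. The class had a median change of -0.05, against -0.05 over all probe sets.

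Of the 14 genes named pof none reached 1.5-fold, where 8.60% of all probe sets were called. By the adjusted p 5 were higher and 4 lower, 64.3% of them, near the 70.7% over all probe sets. The median change was -0.03, against -0.05 over all probe sets. The largest change was that of pof14, an F-box protein that acts in the oxidative stress response and binds the squalene synthase of sterol synthesis. Its values were 11.12, 11.29 and 11.19 in the null, against 10.75, 10.61 and 10.61 in wild type. The null arrays all lay higher, and the log2 change was 0.54 (SE 0.056, limma adjusted p = 0.000117), or 1.46-fold. It passed 1.5-fold when wild type array 1 was left out (0.589), when arrays were centred on their medians (0.591) and when quantile normalization was repeated (0.588). Next came pof4, at 9.68, 9.78 and 9.74 in the null, against 9.33, 9.32 and 9.35 in wild type (0.40, SE 0.033, limma adjusted p = 4.35e-05). For pof11 the values were 10.78, 10.95 and 10.93 in the null, against 10.67, 10.62 and 10.68 in wild type (0.23, SE 0.049, limma adjusted p = 0.00424).

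The remaining F-box genes lay within a narrow band. By the adjusted p, pof13 (log2 change 0.14) and pof12 (0.09) were higher, and pof1, pof6 and pof7 (-0.17, -0.16 and -0.16) and pof5 (-0.11) were lower. Pof1 is the F-box protein that directs the transcription factor Zip1 to destruction. The gene pof3, whose product guards genome stability, was at 9.38, 9.55 and 9.55 in the null, against 9.60, 9.61 and 9.66 in wild type. Its groups did not overlap, but the difference of -0.13 did not pass (limma adjusted p = 0.0527). No difference passed for pof2 (-0.05), pof8 (-0.07), pof9 (0.04) and pof10 (-0.02). Pof8 carries an F-box name but is also known as Lar7, a protein of the telomerase complex. The 95% interval of these 4 changes ran at most from -0.21 for pof8 to 0.22 for pof9, so changes of 1.5-fold lie outside it.

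Over all members the isp7 null arrays lay wholly above the wild type arrays for 18 genes, wholly below for 23, and overlapped for 15, where over all *S. pombe* probe sets the groups did not overlap for 76.1%. Null array 1 was the lowest of the null arrays for 33 of the 56 members, 58.9%, against 49.5% of all probe sets. Its median distance from the null mean was -0.034 over the members, which is small beside the called changes. Without it, 1 member was called higher and 3 lower, as with all arrays.

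Change ran with gene length, and the classes differ in length. Across the 56 members, Spearman's rho of change with length was -0.47, and without nep2 and ubp11 it was -0.45. Across the 22 proteases alone it was weaker, at -0.18. Across all 2917 probe sets it was -0.37. These are descriptions across genes that share the same 6 arrays. Of the 8 members shorter than 1200 bases, 6 were higher and 0 lower by the adjusted p. Of the 9 members of 3000 bases or more, 2 were higher and 7 lower. Over all probe sets, the numbers were 320 higher and 112 lower of 627 shorter than 1200 bases, and 67 higher and 378 lower of 586 of at least 3000 bases. The median length was 2597 bases for the proteases, 2909.5 bases for the cullins, 1763.5 bases for the pof genes and 1303 bases for the conjugating enzymes.

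**Figure D3:**
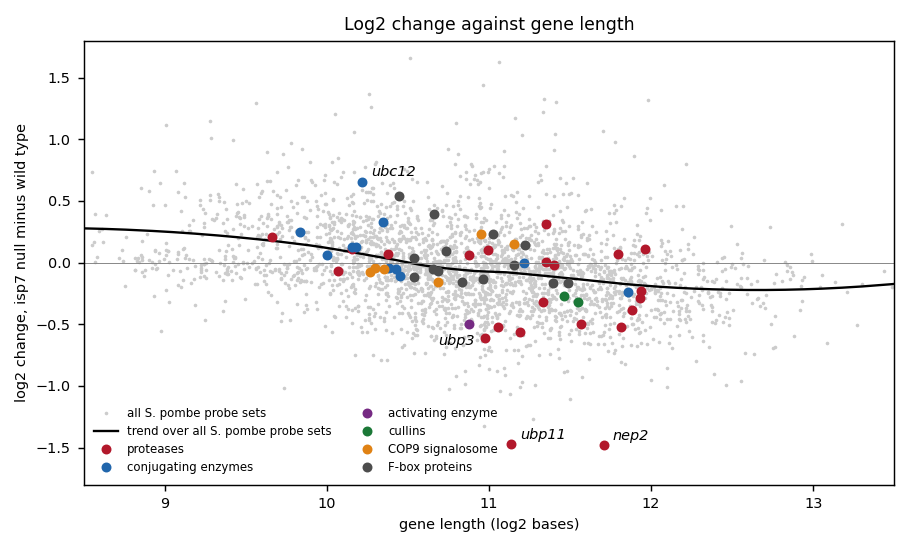
Log2 change (isp7 null minus wild type, y axis) against gene length (x axis, log2 bases). Small grey dots are all *S. pombe* probe sets except 24 that lie beyond the axes, the black line is the loess trend over them, and coloured points are the members by class. The trend falls with length, and nep2 and ubp11 lie well below it while ubc12 lies above it.

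When the trend on gene length was taken out of each array before the fit, the 2 largest falls stayed near their size. The log2 change was -1.32 (SE 0.080, limma adjusted p = 1.6e-05) for nep2 and -1.39 (limma adjusted p = 3.52e-05) for ubp11. The values of ubp3 and ubc12 dropped under 1.5-fold, which left 0 members called higher and 2 lower, with 4 of 56 changing sign (pof10, ubc16, ubc4 and ubp14, all small). The adjusted p still passed for uba3 (-0.44), ubp16 (-0.47), ubp8 (-0.45), ubp12 (-0.35), ubp1 (-0.36) and pof14 (0.53). It no longer passed for pof1, pof6, ubc1, ubc6, ubc14, ubp5, otu2 and uch1, and newly passed for csn1 (0.24), csn71 (-0.10), ubp14 (0.09), ubp6 (0.12) and ubp10 (0.12). The class medians went to -0.07 for the proteases, 0.04 for the conjugating enzymes, -0.17 for the cullins and 0.02 for the pof genes. That of the COP9 signalosome went from -0.05 to -0.10. Over all *S. pombe* probe sets the median went from -0.05 to -0.02. The shares of all probe sets that passed under this correction are not given here, so these counts have no background beside them.

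Genes of the same pathway outside the symbol rule were taken from 9 lists, with 81 genes measured on 82 probe sets. Of these, 4 probe sets rose and 1 fell, where the background is 4.22% higher and 4.39% lower, and the median change was -0.004. A list entry replaced after the annotation was read, sgt1, was lower in the null (log2 change -1.33, limma adjusted p = 4.54e-06), and with it kept in place of git7 the lists had 4 rises and 2 falls. By the adjusted p, with git7 in the lists, 32 of the 82 probe sets were higher and 23 lower, 67.1% of them. Over all *S. pombe* probe sets 70.7% passed, 29.3% higher and 41.3% lower. Among the ubiquitin and ubiquitin-like proteins only ned8 rose, of 9 probe sets. The gene of NEDD8 itself, it was at 12.61, 12.57 and 12.63 in the null, against 11.83, 11.89 and 11.86 in wild type. Its log2 change was 0.74 (SE 0.030, limma adjusted p = 4.54e-06), and the groups lay far apart for their spread. The ubiquitin genes ubi1 to ubi4 changed by -0.05 to 0.18, with 0.08 and 0.01 for the probe sets of ubi3. Their means of 14.74 to 15.63 lie near the highest value in the table, 15.65, where differences are compressed. With the gene length correction ubi1 went to -0.28, ubi2 to -0.25, the ubi3 probe sets to -0.18 and -0.24, and ubi4 to 0.14. All of these passed the adjusted p.

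Among 12 cullin ligase core subunits and adaptors, rbx1 rose and rik1 fell. The gene of the RING subunit of cullin ligases, rbx1, was at 12.86, 12.79 and 12.82 in the null, against 12.22, 12.16 and 12.13 in wild type (log2 change 0.65, SE 0.036, limma adjusted p = 1.03e-05). Rik1 belongs to the Cul4 ligase that acts in heterochromatin, and its gene was at 10.19, 10.31 and 10.26 in the null, against 10.90, 10.95 and 10.89 in wild type (-0.66, SE 0.038, limma adjusted p = 1.19e-05). The adaptor gene skp1, a direct partner of the F-box proteins, was higher by 0.39 (SE 0.038, limma adjusted p = 8.65e-05), short of 1.5-fold, and is named here after its value was seen. The list's median was -0.04.

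The genes of NEDD8 attachment and removal therefore went in both directions. The transcripts of ned8, ubc12 and rbx1 rose and that of nep2 fell. Those of uba3, cul1, cul3, csn3 and csn5 were lower and those of nep1 and csn2 higher by the adjusted p alone, and csn1, csn4 and csn71 did not pass it. Under the alternatives of the fit, limma's adjusted p rose to as much as 0.417 for csn5 and 0.133 for nep1. It stayed below 0.05 for uba3, cul1, cul3, csn3 and csn2. This grouping of NEDD8 genes was put together after the values had been seen. It leaves out the cullin gene cul4 (-0.09, and 0.03 with the gene length correction). The listed genes ula1, dcn1 and knd1 had no named probe set. The genes that rose are short, at 538 bases for ned8, 963 bases for rbx1 and 1190 bases for ubc12, and nep2 has 3342 bases. With the gene length correction ned8 went to 0.50 and rbx1 to 0.52, both short of 1.5-fold and past the adjusted p.

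**Figure D4:**
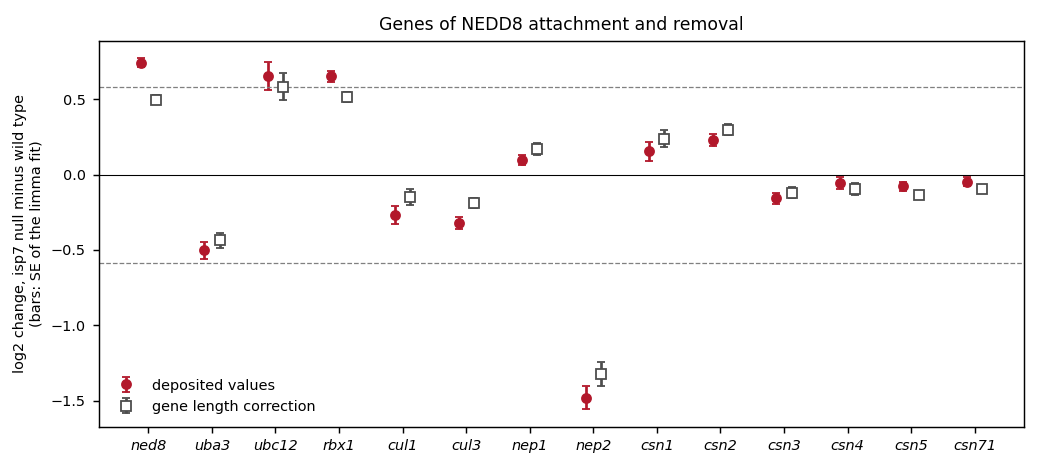
Log2 change (isp7 null minus wild type, y axis) of genes of NEDD8 attachment and removal with all 6 COP9 signalosome subunits measured, from the deposited values (red circles) and after the gene length correction (open squares), with the SE of the limma fit and dashed lines at 1.5-fold. For every gene shown the direction is the same under both, although that of csn71 turns with median centring. The gene nep2 alone lies beyond 1.5-fold on the lower side. Not shown is cul4, whose change went from -0.09 to 0.03 with the correction, neither past the adjusted p.

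In the anaphase-promoting complex list, 2 of 15 rose and none fell, where 4.22% of all probe sets rose and 4.39% fell. By the adjusted p, 9 were higher and 2 lower, against 29.3% higher and 41.3% lower over all probe sets. The rises were those of apc15 and apc10, which encode small subunits. The apc15 values were 9.16, 9.38 and 9.38 in the null, against 8.43, 8.05 and 8.53 in wild type (log2 change 0.97, SE 0.13, limma adjusted p = 0.000372). The apc10 values were 10.76, 10.84 and 10.77 in the null, against 10.15, 10.13 and 10.09 in wild type (0.67, SE 0.034, limma adjusted p = 8.35e-06). Both sets stood apart, as did 76.1% of all *S. pombe* probe sets, with wild type the more spread for apc15. Both genes are under 1200 bases, with corrected values of 0.81 and 0.52. The list's median change was 0.29, against -0.05 over all probe sets, on a median length of 2486 bases.

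No gene rose or fell in the other 6 lists, where 8.60% of all probe sets did. For 6 activating and conjugating enzymes under other symbols, the changes ran from -0.43 to 0.35, and these include uba1 (-0.02) and uba2 (-0.43), which encode activating enzymes of ubiquitin and of SUMO. The 6 measured partners of ubiquitin proteases ran from -0.575 to 0.38, the 2 further proteases from -0.07 to 0.27, and the 17 other ubiquitin ligases from -0.46 to 0.38. For the 4 SUMO ligases and proteases the range was -0.47 to 0.50 and for the 11 genes of Cdc48 and ubiquitin receptors -0.51 to 0.27.

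The annotated protein-coding neighbours of the called members were compared with them where measured. Beside ubp11, rpc10 changed by -0.19 and pat1 by -0.45 (SE 0.063), neither past 1.5-fold. Beside ubp3, spt16, which encodes a subunit of the histone chaperone FACT, fell (log2 change -0.66, SE 0.055, limma adjusted p = 4.67e-05), while erd2 was higher by 0.22. Beside ubc12, arg1 changed by -0.12. The neighbours of nep2 and the other neighbour of ubc12 had no named probe set and were not analysed here.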

How the data were processed

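Total RNA from 3 isp7 null and 3 wild type samples was labelled with biotin and hybridized to an Affymetrix array, per the labels' protocols. In the deposited table each value is on the log2 scale, summarised per probe set by the authors with RMA in Partek 6.5, per the submitters' processing notes. RMA brings all arrays to 1 distribution, so a change in total RNA per cell is lost. All 6 columns were used. Precision is limited by there being 3 arrays a group.

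Gene names come from the platform annotation, matched to the RefSeq gene table (assembly ASM294v3) for names, gene lengths and neighbours. Of the members, 1 matched by symbol because its gene ID was retired, and 1 has a newer symbol. All 56 probe sets have the suffix for a single transcript. The fit (isp7 null minus wild type) used limma 3.58.1 in R 4.3.3 over all 2917 *S. pombe* probe sets, two-sided, with no trend and no robust prior, and with Benjamini-Hochberg adjustment. The false discovery rate of 0.05 and the folds of 1.5 and 2 follow the series' design text. The code was tested on simulated data.

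The members and lists were chosen with earlier results of these data known. The naming rule gives every member with its log2 change, values by array for called members and the 3 largest changes of each class, called genes of the lists, isp7, and the neighbours of called members. Outside this rule are the values by array of ubp16, ubp9, nep1 and pof3. So are the uncalled genes ubi1 to ubi4, skp1, uba1, uba2 and cul4. One list entry, sgt1, was replaced by git7 once its symbol was seen to belong to another gene, and its value is given. No sequence table was available for the members, so no sequence is shown. Alternatives were other variance priors, no moderation, the replicate number as a block, other scalings, a background filter, all probe sets, averages per gene, a loess correction for gene length (span 0.75), updated symbols, other fold thresholds and leaving out each array.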

Additional observations from a re-analysis of the deposited data

How the results depend on the processing

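The call of nep2 and ubp11 kept its direction and passed both thresholds under all 16 alternatives of the fit. The count of members called higher, 1 in the fit as reported, was 2 under either rescaling, by median centring or by repeated quantile normalization (ubc12 with pof14), 0 with the gene length correction, 0 at the 2-fold threshold and 17 with no fold threshold. The count called lower, 3 as reported, was 2 under both rescalings, with the gene length correction and at the 2-fold threshold, and 22 with no fold threshold. F-box proteins called higher were 1 under both rescalings in place of 0, and conjugating enzymes called higher were 0 with the gene length correction in place of 1. The median change of members was -0.011 with repeated quantile normalization and 0.001 with median centring. Over all *S. pombe* probe sets the median was -0.05 in the fit as reported, -0.02 with repeated quantile normalization and -0.00 with median centring. Median centring moves the change of every probe set by the same amount, so its sign changes follow from that shift. Leaving out 1 array gave 0 to 2 members called higher and 3 to 4 lower, 0 to 1 F-box proteins and 0 to 1 conjugating enzymes called higher, and medians from -0.063 to -0.033. Small uncalled changes turned sign: csn71 (0.002), ubc7 (0.007), pof2 (0.001), pof10 (0.030), ubc16 (0.044) and ubp14 (0.029) with median centring; pof2 (0.002), pof10 (0.044), ubc16 (0.018), ubp14 (0.044) and pof9 (-0.072) with repeated quantile normalization; and pof10 (0.065), ubc16 (0.087), ubc4 (-0.060) and ubp14 (0.095) with the gene length correction. With 1 array left out, the ranges that cross 0 were -0.103 to 0.000 for pof8, -0.044 to 0.006 for pof10, -0.003 to 0.111 for pof9, -0.074 to 0.055 for ubc16 and -0.012 to 0.040 for ubp6. For the settings other than median centring, the cause of these shifts was not tested. Deviations of same-numbered arrays had correlations of -0.116, -0.251 and 0.108, and those of differently numbered arrays ran from -0.123 to 0.25. With 3 arrays a group, these cannot settle whether samples were paired or shared a batch. With the replicate block 1 member was called higher and 3 lower, as without it. Several small changes that passed the adjusted p in the fit as reported did not pass under every alternative. Among them, limma's adjusted p rose to as much as 0.417 for csn5, 0.286 for pof5, 0.227 for ubc8, 0.2 for ubp7 and 0.133 for nep1.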
